A study of Mus musculus with 6 samples.

Results

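The genes described here between lymphoid and myeloid culture were listed as feedback and survival genes that STAT factors induce. Whether STAT factors induce each of them was not tested. They are the suppressor of cytokine signalling genes Cish, Socs1, Socs2, Socs3 and Socs6 and the kinase genes Pim1, Pim2 and Pim3. The cytokine gene Osm and the repressor gene Bcl6 complete the list. The members were chosen by symbol, 10 of the 23337 genes counted, and all 10 were among the 12477 that passed the filter on low counts. The cells were mouse hematopoietic stem and progenitor cells (HSPCs) transformed with the MLL-AF9 fusion, an oncogene of acute leukemia that both groups carried, so that no untransformed control enters any comparison. Polyadenylated RNA was sequenced from 3 libraries of pro-lymphoid culture (replicates 1, 5 and 6) and 3 of pro-myeloid culture (replicates 2, 3 and 4). The sources used here do not give the cytokines of each culture, any feeder cells, the strain and age of the donor mice or the vector of the oncogene. Nothing in the labels ties the libraries to separate cultures or mice, and the p-values therefore cover only the spread between libraries, part or all of which may be technical.

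Cytokine receptors of blood cells have no kinase of their own. Ligand binding activates JAK kinases bound to the receptor, these phosphorylate STAT factors, and STAT dimers enter the nucleus and bind DNA. Among the genes they induce are brakes on the same pathway, since CISH and the SOCS proteins join an SH2 domain, which docks on phosphorylated receptors or kinases, to a SOCS box, which recruits a ubiquitin ligase. The PIM proteins are serine/threonine kinases that are active as soon as they are made, so that transcript level is a main point of their control, and they promote growth and survival of blood cells. In myeloid cells STAT3 and STAT5 act downstream of G-CSF, GM-CSF and IL-3, and in lymphoid progenitors STAT5 acts downstream of IL-7.

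The libraries held 34972488 to 46724382 counts, and the first principal component (82.3% of the variance) parted the cultures. The second (7.9%) set pro-myeloid replicate 2 (score -52.9) apart from replicates 3 and 4. Pro-lymphoid replicate 1 lay on the same side of the second component, less far out (-19.6). The genes listed as HSPC markers, Ptprc, Kit, Cd34, Meis1 and Hoxa9, had reads in every library. Their summed level in CPM, counts scaled to library size, was 705 to 955 in the pro-lymphoid libraries and 844 to 862 in the pro-myeloid ones. Much of it was Ptprc, which is not particular to HSPCs. Ptprc stood at 324, 277 and 287 CPM in pro-lymphoid replicates 1, 5 and 6. In pro-myeloid replicates 2, 3 and 4 it stood at 354, 433 and 370 CPM. Of these 5 markers 4 differed in pro-lymphoid culture, with Kit 3.34-fold and Cd34 2.63-fold higher and Meis1 2.71-fold and Hoxa9 1.93-fold lower (edgeR adjusted p = 0.0165, 0.00906, 0.00125 and 0.00107). The 7 B-lineage markers summed to 24.9 to 34.8 CPM in pro-lymphoid culture and to 29.5 to 54.4 CPM in the other. Most of this was Cd79b (means of 28.9 and 40.4 CPM, not called). The defining markers Ebf1 and Pax5, not tested, had 6 and 4 counts in pro-lymphoid culture and 0 and 160 in the other. Pax5 had 1, 81 and 78 counts in pro-myeloid replicates 2, 3 and 4. Of 4 tested B-lineage markers, Vpreb1 and Igll1 were called, both with more reads on the pro-myeloid side. Their log2 fold changes were -3.36 ± 0.84 and -2.09 ± 0.68 (edgeR adjusted p = 0.0189 and 0.0473). Neither was called without pro-lymphoid replicate 1 or 5 or pro-myeloid replicate 4. Of the 7 T and NK markers, Cd3e and Ncr1 had 0 counts in all libraries. The summed level was 0.489 to 1.05 CPM in the pro-lymphoid and 0.182 to 0.355 CPM in the pro-myeloid libraries. Klrb1c, the 1 tested, was higher in pro-lymphoid culture, with 45 against 11 counts (log2 fold change 2.05 ± 0.61, edgeR adjusted p = 0.0356). No T and NK marker was called with DESeq2 or with any 1 library left out. Cd4, not tested, had 28 counts in pro-lymphoid culture and 0 in the other. The 6 erythroid markers summed to at most 1.26 CPM with Hba-a1 and Hbb-b1 at 0, and of 8 stromal markers Col1a2, Col3a1, Dcn and Lum had 0 counts in all libraries (summed level 1.90 to 19.4 CPM in the pro-lymphoid and 5.54 to 17.2 CPM in the pro-myeloid libraries). The 7 granulocyte markers Elane, Mpo, Prtn3, Ctsg, S100a8, S100a9 and Ngp were all lower in pro-lymphoid culture, where they summed to 162 to 366 CPM, than in pro-myeloid culture, where they summed to 4535 to 9068 CPM. The 5 mast cell and basophil markers, with Fcer1a and Tpsb2 at 0, summed to 0.445 to 2.02 CPM and 9.58 to 30.7 CPM. The part of the HSPC, granulocyte, mast cell and basophil, B-lineage, stromal or other markers in the results that follow was not tested. In bulk RNA fewer cells with a transcript and less of it per cell cannot be told apart.

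The members moved in opposite directions between the cultures. Pim1, Socs3, Cish, Osm and Bcl6 were lower in pro-lymphoid culture, Pim2 and Pim3 were higher there, and Socs1, Socs2 and Socs6 were not called. With calls made over all tested genes (edgeR quasi-likelihood test, adjusted p under 0.05), 7 of the 10 members changed, where 37.4% of all tested genes did. By direction 2 members were higher, against 16.8% of all genes, and 5 were lower, against 20.6%. The libraries of the cultures did not overlap for 7 members, a pattern that 53.6% of all genes shared. A change of at least 2-fold was called for 6 members (all called members except Pim3, at 1.97-fold), where 20.3% of all genes had one. The median log2 fold change of the members, pro-lymphoid minus pro-myeloid culture, was -0.96, and that of all tested genes 0.00. The numbers of called members depended on single libraries. Without pro-myeloid replicate 3 or 4, 1 member was higher, and without pro-lymphoid replicate 5 or 6, 3 were lower.

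**Figure D1:**
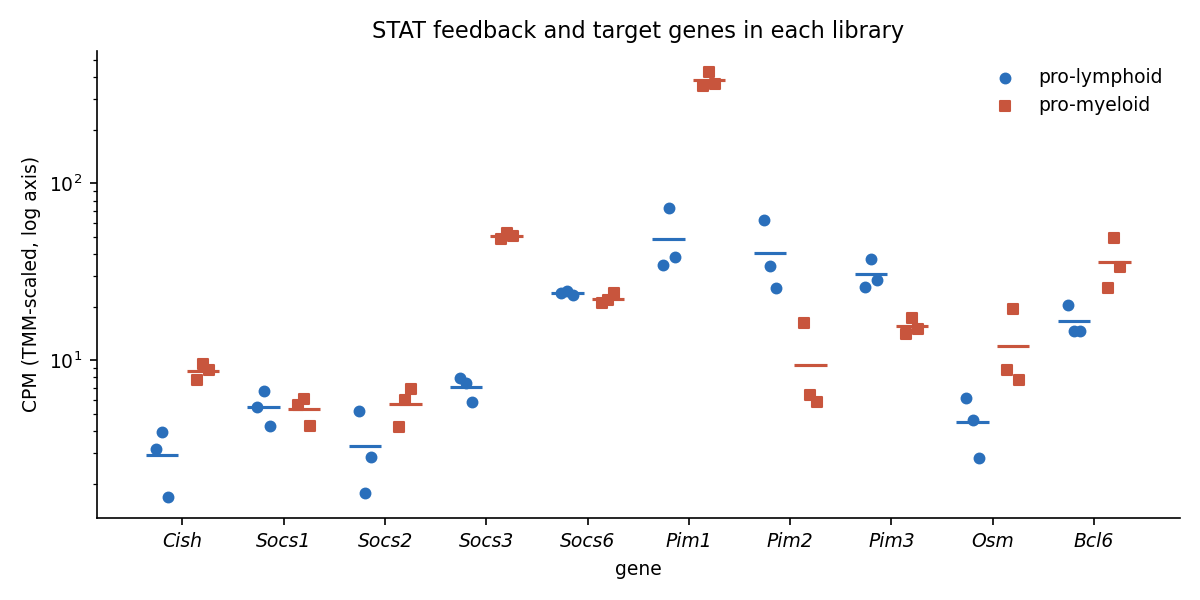
Level of each of the 10 genes (x axis) in CPM (y axis, log scale, scaled by TMM factors) for the 3 pro-lymphoid libraries (circles) and the 3 pro-myeloid ones (squares), with bars at each culture's mean. Pim1 stands highest, at 357 to 426 CPM in the pro-myeloid libraries, and the Socs1, Socs2 and Socs6 symbols of the cultures overlap.

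STAT dimers are known to bind a palindrome of TTC and GAA with 3 bases between them, and the promoters that carry it show which members hold such letters close to their start. Windows of 250 bases before to 50 bases after each RefSeq start (GRCm38.p6, the assembly of mm10) were searched for TTCNNNGAA, which reads the same on both strands. Of the 10 members 7 were matched to windows (Cish, Socs1, Socs3, Bcl6, Pim1, Pim2 and Pim3), and Socs2, Socs6 and Osm were not. A match stood in 3 of these 7 genes (Cish, Socs3 and Bcl6), against 9.55% of all 27025 genes with windows. By window it stood in 4 of their 9, both windows of Bcl6 among them, against 8.3% of all 32851 windows. The members were chosen from a list of genes said to be induced by STAT factors, so their share of matches is not an independent result. These 3 genes were all lower in pro-lymphoid culture, as was Pim1, whose windows hold no match. Of the other genes without a match, Pim2 and Pim3 were higher there and Socs1 was not called. The spaced form TTCNNNNGAA, with 4 bases between the TTC and GAA parts, had no match in the 9 windows and 1 or more in 6.95% of all windows, and a match of 1 form cannot be a match of the other at the same TTC and GAA.

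The stretches below run 5′ to 3′ on the gene's strand, in mm10 coordinates, with the matches in capitals. The Cish stretch (chr9:107296655-107296684, plus strand) holds 2 matches within the first bases of the RefSeq transcript, in its 5′ untranslated exon, and 30 and 19 bases before the start of the gene as it was counted. The Socs3 match (in chr11:117969447-117969566, minus strand) lies 154 bases before the start, in an intron of a longer GENCODE M21 model. Bcl6 has a match 118 bases before its outer start (in chr16:23988903-23989022, minus strand), outside the gene, and 3 matches before its inner start (in chr16:23981354-23981473, minus strand), in an intron of the longer transcript. Of all windows, 0.457% held 2 or more matches and 0.0335% held 3 or more.
Cish: agttTTCCTGGAAagTTCTTGGAAatctgt
Socs3: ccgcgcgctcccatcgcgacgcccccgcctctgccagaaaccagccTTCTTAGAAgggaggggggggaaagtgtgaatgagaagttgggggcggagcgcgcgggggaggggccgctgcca
Bcl6 outer start: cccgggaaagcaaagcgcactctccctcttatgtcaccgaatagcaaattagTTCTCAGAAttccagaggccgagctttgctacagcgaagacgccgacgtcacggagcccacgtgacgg
Bcl6 inner start: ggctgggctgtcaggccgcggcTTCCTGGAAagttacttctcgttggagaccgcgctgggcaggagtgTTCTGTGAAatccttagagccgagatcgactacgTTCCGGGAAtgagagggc

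The last 120 bases before the RefSeq starts of the 3 kinase genes (for Pim1 the outer of 2 starts) are shown because these genes moved in opposite directions, and they hold no match (Pim1, chr17:29490665-29490784; Pim2, chrX:7878186-7878305; Pim3, chr15:88862074-88862193; all on the plus strand). They differ in base composition, with 82.4% G and C in the 250 bases before this Pim1 start, 62.0% for Pim2 and 68.0% for Pim3. The counted Pim1 gene starts 260 bases after this RefSeq start.
Pim1: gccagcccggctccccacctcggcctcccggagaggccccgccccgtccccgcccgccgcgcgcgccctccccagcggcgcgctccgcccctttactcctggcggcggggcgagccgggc
Pim2: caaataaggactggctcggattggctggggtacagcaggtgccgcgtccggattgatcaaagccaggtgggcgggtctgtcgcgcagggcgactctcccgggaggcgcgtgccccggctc
Pim3: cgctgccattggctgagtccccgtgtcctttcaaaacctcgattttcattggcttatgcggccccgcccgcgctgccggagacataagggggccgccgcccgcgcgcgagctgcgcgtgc
A match is a description of the letters and not a binding site, and a window with no match says nothing of the factors that act on the gene.

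Of the PIM kinase genes, Pim1 was the most abundant transcript of the 10 in pro-myeloid culture and the one with the largest drop, close to that of Socs3. It stood at 34.6, 72.8 and 38.3 CPM in pro-lymphoid replicates 1, 5 and 6 and at 357, 426 and 365 CPM in pro-myeloid replicates 2, 3 and 4. Every pro-myeloid library was thus far above every pro-lymphoid one, among which replicate 5 was the highest. Pim1 (chromosome 17, 29491045 to 29495459) was 7.89-fold lower in pro-lymphoid culture (log2 fold change -2.98 ± 0.30, SE, edgeR adjusted p = 0.000609). Pim2, a kinase gene known to be induced by cytokines in lymphoid cells, went the other way, at 61.7, 34.3 and 25.5 CPM in the pro-lymphoid and 16.2, 6.36 and 5.79 CPM in the pro-myeloid libraries. The cultures did not overlap. Pro-myeloid replicate 2, the library farthest out on the second component, had over double the Pim2 level of the other pro-myeloid libraries. Pim2 (chromosome X, 7878306 to 7883432) rose 4.29-fold (log2 fold change 2.10 ± 0.49, edgeR adjusted p = 0.0153), a call lost without pro-myeloid replicate 3 or 4 (adjusted p = 0.0507 and 0.053). Pim3, a kinase gene related to both, stood at 26.0, 37.3 and 28.4 against 14.2, 17.4 and 15.1 CPM. All 3 pro-lymphoid values were above the pro-myeloid ones, and Pim3 (chromosome 15, 88862194 to 88865726) rose by a log2 of 0.97 ± 0.18 (edgeR adjusted p = 0.0065).

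The makeup of the PIM transcripts can be given as shares, whose ranges did not overlap between the cultures for any of the 3 genes. Per kilobase of exon, Pim1 made up 32.5, 56.3 and 47.4% of the 3 kinase transcripts in pro-lymphoid replicates 1, 5 and 6 and 93.7, 95.9 and 95.8% in pro-myeloid replicates 2, 3 and 4. These shares do not depend on how libraries are scaled. The mean share of Pim2 was 33.2 ± 14.5% against 2.06 ± 1.37% (SD, n = 3) and that of Pim3 21.4 ± 3.91% against 2.80 ± 0.0934%. Each of the shares of Pim1, Pim2 and Pim3, and that of Cish below, gave a two-sided exact permutation p of 0.1 (0.1 after Benjamini-Hochberg adjustment over 4 shares), the smallest that 3 against 3 libraries allow. The ratio of Pim1 to Pim2 per kilobase was 0.652, 2.47 and 1.75 in the pro-lymphoid and 25.7, 78.0 and 73.5 in the pro-myeloid libraries. Pro-lymphoid replicate 1 was the library in which Pim2 exceeded Pim1. The summed level of the 3 genes was 60.2 ± 13.9 RPKM (TMM-scaled CPM per kilobase of exon) in the pro-lymphoid and 229 ± 20.8 RPKM in the pro-myeloid libraries (SD, n = 3), so the gain of Pim2 and Pim3 was smaller than the loss of Pim1.

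**Figure D2:**
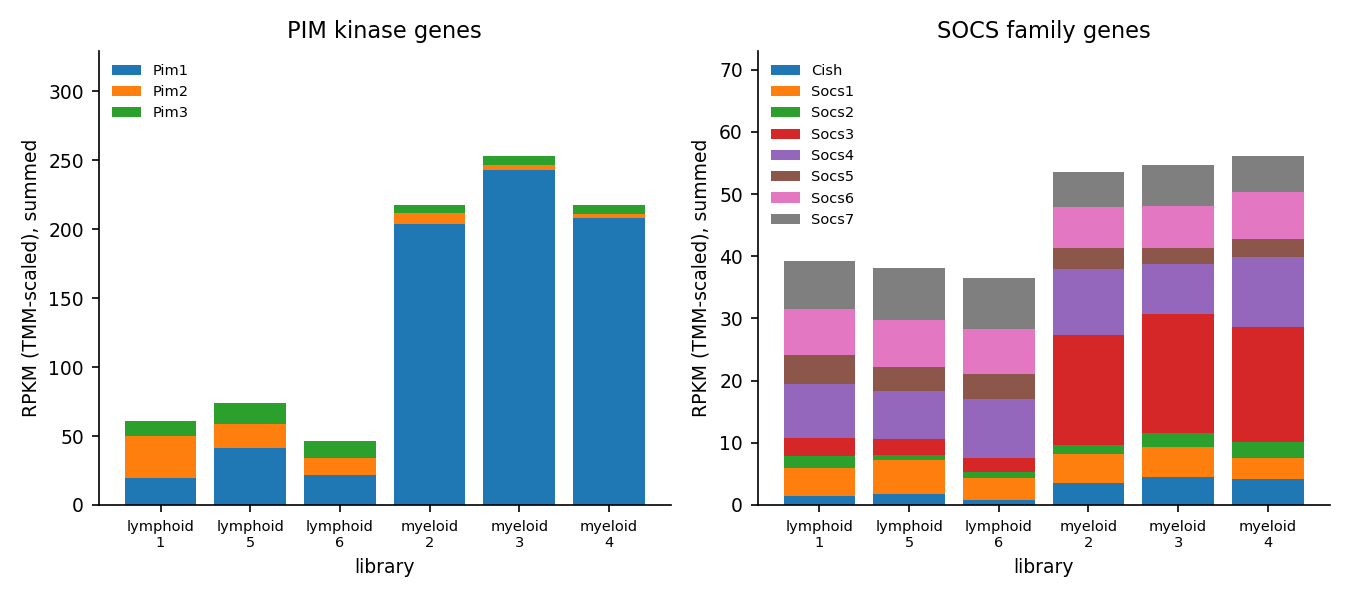
Summed RPKM (TMM-scaled, y axis) of the 3 PIM kinase genes (left) and the 8 SOCS family genes (right) in each library (x axis), each colour being 1 gene. Pim1 fills 93.7 to 95.9% of the PIM bars in pro-myeloid culture, and Socs3 is the part of the SOCS bars that differs most between the cultures.

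Among the SOCS genes, Socs3 had the largest log2 fold change. It encodes the inhibitor that docks on the shared IL-6 receptor chain and on the G-CSF receptor and blocks JAK activity there. Socs3 stood at 7.97, 7.43 and 5.84 CPM in pro-lymphoid replicates 1, 5 and 6 and at 48.2, 52.1 and 50.1 CPM in pro-myeloid replicates 2, 3 and 4. The pro-myeloid values lay close together and no library came near the other culture. Socs3 (chromosome 11, 117966087 to 117969366) was 7.09-fold lower in pro-lymphoid culture (log2 fold change -2.82 ± 0.16, edgeR adjusted p = 6.88e-05), and it was called lower in all 13 alternative analyses. Cish, which encodes a brake on STAT5 signalling and is itself known as a STAT5 target, had few reads. It stood at 3.15, 3.95 and 1.70 CPM (116, 151 and 73 counts) in the pro-lymphoid and 7.73, 9.59 and 8.86 CPM (297, 324 and 409 counts) in the pro-myeloid libraries. The cultures did not overlap, and pro-lymphoid replicate 6 was the lowest. Cish (chromosome 9, 107296689 to 107301961) was 2.98-fold lower in pro-lymphoid culture (log2 fold change -1.57 ± 0.34, edgeR adjusted p = 0.0111).

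Socs2, which encodes an inhibitor of growth hormone receptor signalling, varied within pro-lymphoid culture, at 5.18, 1.78 and 2.84 CPM in replicates 1, 5 and 6 against 4.19, 5.95 and 6.89 CPM in pro-myeloid replicates 2, 3 and 4. Pro-lymphoid replicate 1 reached into the pro-myeloid range. Its log2 fold change of -0.80 (95% interval -1.80 to 0.20) was not called (edgeR adjusted p = 0.182). Without pro-lymphoid replicate 1 it was -1.29 (adjusted p = 0.0422). Socs1, which encodes the inhibitor of interferon and IL-7 signalling that blocks the JAK kinase domain, stood at 5.42, 6.67 and 4.28 against 5.57, 6.01 and 4.25 CPM. Its values overlapped throughout, and the interval of its log2 fold change of 0.05 (95% interval -0.59 to 0.68, edgeR adjusted p = 0.902) spans changes in either direction. Socs6, which encodes a SOCS protein that acts on receptor tyrosine kinases such as KIT, was the steadiest member, at 24.0, 24.6 and 23.4 against 21.1, 21.8 and 24.1 CPM. Its interval was narrow (log2 fold change 0.10, 95% interval -0.20 to 0.40, edgeR adjusted p = 0.561).

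The 3 remaining genes of the family, listed for comparison, moved little. Socs7 stood at 56.5 ± 2.32 against 42.1 ± 3.13 CPM (SD, n = 3) and rose by a log2 of 0.42 ± 0.11 (edgeR adjusted p = 0.0212). This call was lost without pro-myeloid replicate 4 or pro-lymphoid replicate 5 or 6 (adjusted p = 0.069, 0.0761 and 0.0756). Socs5 had a log2 fold change of 0.48 (edgeR adjusted p = 0.0665, but 0.0429 with upper-quartile scaling, 0.0332 with DESeq2 and 0.0314 without pro-myeloid replicate 2) and Socs4 of -0.21 (edgeR adjusted p = 0.406). Over the 8 genes, Socs3 took 33.6 ± 1.25% of the family's transcripts per kilobase in the pro-myeloid and 6.83 ± 0.834% in the pro-lymphoid libraries (SD, n = 3). Cish took 7.37 ± 0.726% and 3.55 ± 1.32% (exact permutation p = 0.1). The summed level of the family was 37.9 ± 1.42 RPKM in the pro-lymphoid and 54.8 ± 1.31 RPKM in the pro-myeloid libraries, and Socs3 accounted for most of that gap (2.60 ± 0.407 against 18.4 ± 0.717 RPKM).

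**Figure D3:**
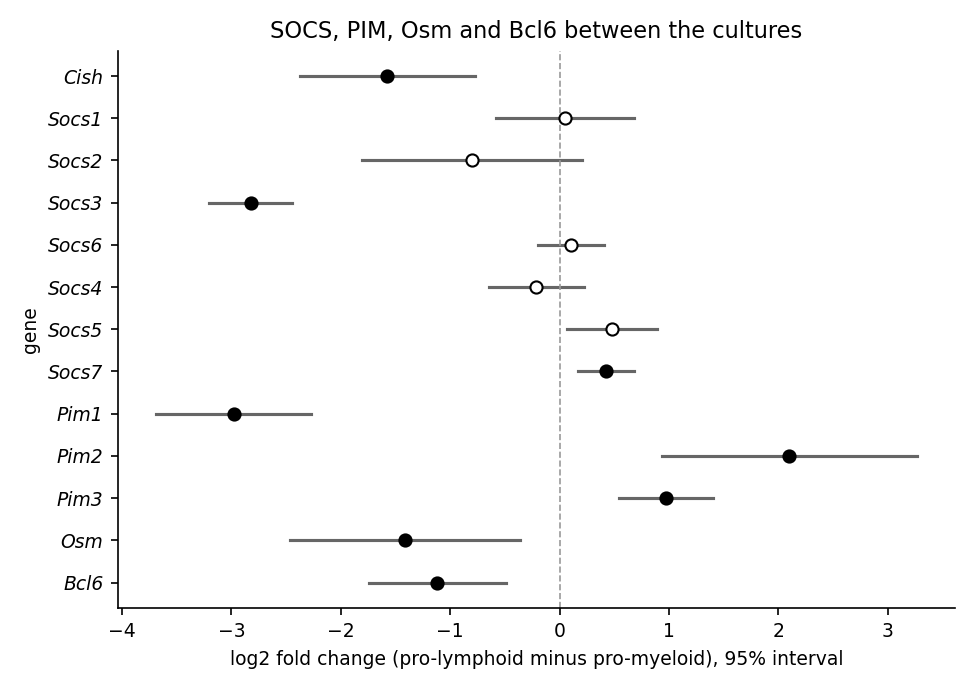
The x axis gives the log2 fold change (pro-lymphoid minus pro-myeloid) of the 10 genes and of Socs4, Socs5 and Socs7 (y axis) with 95% intervals from the edgeR fit, where filled symbols passed the threshold of 0.05 on the adjusted p and open ones missed it. Pim1 (-2.98) and Socs3 (-2.82) lie farthest to the left and Pim2 (2.10) farthest to the right with a wide interval.

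Osm encodes oncostatin M, a cytokine of the IL-6 family that hematopoietic cells secrete and that is known as a STAT5 target. It stood at 6.10, 4.63 and 2.79 CPM in pro-lymphoid replicates 1, 5 and 6 and at 8.83, 19.4 and 7.72 CPM in pro-myeloid replicates 2, 3 and 4. The cultures did not overlap, but pro-myeloid replicate 3 was more than double the other pro-myeloid libraries. Osm (chromosome 11, 4236785 to 4241026) had a log2 fold change of -1.41 ± 0.45 (edgeR adjusted p = 0.0435). Without pro-myeloid replicate 3 the difference was -0.88 and was not called (adjusted p = 0.126), nor was it without pro-lymphoid replicate 5 or 6 (adjusted p = 0.101 and 0.131). Of its receptor chains, the specific chain gene Osmr had 0 counts in all pro-lymphoid libraries and stood at 5.39, 1.69 and 2.73 CPM in pro-myeloid replicates 2, 3 and 4, which puts the pro-lymphoid level at least 129-fold lower with 3 counts over its group as the floor (edgeR adjusted p = 0.0021). Il6st, the shared chain, stood at 119 ± 48.1 against 396 ± 203 CPM and fell by 1.74 ± 0.46 (adjusted p = 0.024 by edgeR). Without single libraries its log2 fold change was -2.08 to -1.33, and the call was lost without pro-lymphoid replicate 5 or 6 or pro-myeloid replicate 3 or 4 (adjusted p = 0.0614 to 0.0759). Lifr, the LIF receptor chain gene, had means of 27.7 ± 10.9 and 26.2 ± 25.7 CPM, with pro-myeloid libraries from 3.31 to 54.0 CPM (edgeR adjusted p = 0.944). The cytokine genes Lif and Il6 had too few reads to be tested.

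Bcl6 encodes a zinc finger repressor that binds letters much like those of STAT dimers and is needed by germinal centre B cells, where it blocks terminal differentiation. It stood at 20.6, 14.7 and 14.6 CPM in the pro-lymphoid and 25.7, 48.9 and 33.6 CPM in the pro-myeloid libraries, so the gene known for lymphocytes was higher in myeloid culture in every library. Pro-myeloid replicate 3 was again the highest. Bcl6 (chromosome 16, 23965052 to 23988612) was 2.17-fold lower in pro-lymphoid culture (log2 fold change -1.12 ± 0.27, edgeR adjusted p = 0.0161), a call lost without pro-lymphoid replicate 5 or 6 (adjusted p = 0.0571 and 0.0667). Of 7 genes known to be repressed by BCL6, 6 were tested, 3 rose, 0 fell and 3 were not called (median log2 fold change 0.71). Among all tested genes 16.8% rose and 20.6% fell. Id2, not called, went the other way (-1.13 ± 0.43, edgeR adjusted p = 0.0777). With DESeq2, or without pro-myeloid replicate 2, 1 gene of the list was called lower. A part of BCL6 in these differences was not tested. Cd69, a surface marker of lymphocyte activation, rose by 1.25 ± 0.15 (edgeR adjusted p = 0.00126) to 195 ± 14.0 from 81.9 ± 14.9 CPM. The other 2 calls were lost in some fits with fewer libraries. That of Trp53 (0.90 ± 0.22, adjusted p = 0.0179, 0.71 to 1.16 without single libraries) was lost without pro-lymphoid replicate 5 or 6 or pro-myeloid replicate 4 (0.0526 to 0.0684), and that of Irf4 (2.52 ± 0.80, adjusted p = 0.0433, 1.59 to 2.97 without single libraries) on leaving out any 1 library except pro-lymphoid replicate 1 (0.0656 to 0.144) and with limma-voom (0.0761). Of 5 tested corepressors and relatives, Bcor fell by 0.65 ± 0.12 (edgeR adjusted p = 0.006) and Zbtb7a by 0.53 ± 0.12 (adjusted p = 0.0139, and 0.0628 without pro-lymphoid replicate 6), and 3 were not called.

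Set in order by RPKM, which allows for gene length, the members were arranged differently in the cultures. In pro-lymphoid culture the kinases led, with Pim1 at 27.7 (19.7 to 41.5), Pim2 at 19.9 (12.5 to 30.2) and Pim3 at 12.6 RPKM (10.7 to 15.4). The ranges of these neighbours overlapped, although Pim2 was above Pim3 in all 3 libraries. Socs6 followed at 7.47 ± 0.186 RPKM, clear of Pim3 above it and of Bcl6 below it. Bcl6 (5.07 ± 1.05) and Socs1 (4.48 ± 0.979) overlapped each other and stood clear of Socs3. In the last run of Socs3 (2.60), Osm (2.36), Cish (1.36) and Socs2 (1.21 RPKM) each overlapped its neighbour. In pro-myeloid culture Pim1 stood alone at 218 ± 21.6 RPKM, followed without overlap by Socs3 at 18.4 ± 0.717 and Bcl6 at 7.82 to 14.9 RPKM. Socs6 (6.96), Pim3 (6.43), Osm (6.29), Pim2 (4.63), Socs1 (4.33) and Cish (4.04 RPKM) formed a run in which each overlapped the next, and Socs2 (2.10 RPKM) was the lowest in both orders. From the pro-lymphoid to the pro-myeloid order, Socs3 thus went from rank 7 to rank 2 and Pim2 from rank 2 to rank 7.

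The members also differed in how steady they were within a culture. The SD of log2 CPM had a median over the members of 0.44 among pro-lymphoid and 0.21 among pro-myeloid libraries, where all tested genes had 0.18 and 0.24. In pro-lymphoid culture Socs2 (0.76), Pim2 (0.65), Cish (0.62), Pim1 (0.58) and Osm (0.56) varied most and Socs6 (0.04) least. These 5 did not share an order of libraries, since Pim1 and Cish were highest in replicate 5 and Socs2, Pim2 and Osm in replicate 1. In pro-myeloid culture Pim2 (0.82) and Osm (0.72) varied most, and Socs3 (0.06) and Socs6 (0.10) least. Replicate 2 held the highest Pim2 value and the lowest Socs2, Socs3, Socs6, Pim1, Pim3, Cish and Bcl6 values of the pro-myeloid libraries.

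Likeness to other genes was measured as the root mean square difference of mean-centred log2 CPM over the 6 libraries, among 9341 genes with at least 5 CPM in the higher culture. The genes most like Socs3 were Fbxl5 (0.11), Dstn (0.16) and Emb (0.17). Those most like Pim1 were Plaur (0.23), Klhl22 (0.25) and Tiam2 (0.26), and those most like Cish were Slfn2 (0.20), Sh3tc1 (0.20) and Blvrb (0.21). No gene came as near to Pim2, for which Tnf (0.24), Tmem176a (0.25) and Bsn (0.26) were the closest, as Trp53i13 did to Pim3 (0.05). The closest gene to Bcl6 was Sft2d2 (0.10) and to Osm Pld4 (0.14). No member was among the 3 nearest genes of another member.

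Of the signalling genes upstream, those of myeloid cytokine receptors were mostly lower in pro-lymphoid culture. Of 10 listed receptor genes 7 were tested, 0 rose, 5 fell and 2 were not called (median log2 fold change -2.28). Among all tested genes 16.8% rose and 20.6% fell. The IL-6 receptor chain gene Il6ra, not called, went the other way (0.92 ± 0.37, edgeR adjusted p = 0.0889). It stood at 70.3, 46.0 and 48.4 CPM in the pro-lymphoid and 16.7, 46.0 and 24.4 CPM in the pro-myeloid libraries. With DESeq2, with limma-voom or without pro-myeloid replicate 3, 1 gene of the list was called higher. Csf2rb, the common beta chain gene of the GM-CSF, IL-3 and IL-5 receptors, stood at 98.2, 95.4 and 53.6 CPM in the pro-lymphoid and 447, 621 and 390 CPM in the pro-myeloid libraries and fell by 2.56 ± 0.29 (edgeR adjusted p = 0.000874). Its value is uncertain because reads can be split with its near-identical copy Csf2rb2. Csf2rb2 fell as well, by 2.38 ± 0.51 (edgeR adjusted p = 0.0106). Both are counted among the 5 that fell, although their reads may not be separate. The GM-CSF receptor gene Csf2ra fell by 2.28 ± 0.29 (edgeR adjusted p = 0.00132) and the G-CSF receptor gene Csf3r by 2.57 ± 0.53 (adjusted p = 0.00902). Lymphoid cytokine receptors split, with 2 higher, 2 lower and 2 not called of 6 tested. Il7r, the receptor chain of IL-7, stood at 17.1, 17.9 and 8.72 CPM in the pro-lymphoid and 0.182, 0.178 and 0.152 CPM in the pro-myeloid libraries, a rise of 6.40 ± 0.41 (edgeR adjusted p = 0.000101). Il15ra and Il4ra fell by 1.87 ± 0.25 and 1.86 ± 0.39, and the call of Il21r (1.38 ± 0.41, adjusted p = 0.0342) was lost without pro-lymphoid replicate 1, 5 or 6 or pro-myeloid replicate 4 (0.0512 to 0.0955). Of the 4 interferon receptor genes, Ifngr1 fell by 1.25 ± 0.16 (edgeR adjusted p = 0.0015) and 3 were not called.

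Of the JAK and STAT genes themselves, 0 of 11 rose, 5 fell and 6 were not called (median log2 fold change -0.39). The shares of all tested genes were 16.8% higher and 20.6% lower. Stat3, whose product is the main STAT of G-CSF and IL-6 signalling, fell by 0.85 ± 0.14 (edgeR adjusted p = 0.00355) to 151 ± 11.9 from 271 ± 38.3 CPM, and Jak3 by 1.48 ± 0.21 (adjusted p = 0.00199). The calls of Stat2 and Stat4 were lost without single libraries, among them pro-myeloid replicate 3 or 4 or pro-lymphoid replicate 5, which leave 3 genes called. Stat2 (-0.51, adjusted p = 0.0435) also missed the threshold with upper-quartile scaling, without scaling factors or without a filter (0.0501 to 0.071). Stat5a had means of 66.0 ± 6.46 and 62.3 ± 6.96 CPM (interval of the log2 fold change -0.23 to 0.39, adjusted p = 0.653 by edgeR). Stat5b had means of 143 ± 4.14 and 188 ± 46.6 CPM (-0.83 to 0.04, adjusted p = 0.136). Of 12 other inhibitors of the pathway, 3 rose, 2 fell and 7 were not called (median 0.08), counts near those shares. With DESeq2, 4 rose and 3 fell, and without pro-myeloid replicate 4, 2 rose and 1 fell. Ptpn11 rose by 0.46 ± 0.15, just inside the threshold (edgeR adjusted p = 0.0484). The ubiquitin ligase gene Cblb rose by 0.82 ± 0.13 (edgeR adjusted p = 0.00313), Sh2b3, which encodes the adaptor LNK, by 0.64 ± 0.13 (adjusted p = 0.00994), and the phosphatase gene Ptpn2 fell by 0.62 ± 0.13 (adjusted p = 0.00938). Pias4 fell by 0.49 ± 0.13 (adjusted p = 0.0271), and without single libraries its log2 fold change was -0.57 to -0.38, with the call lost without pro-lymphoid replicate 1 or 6 or pro-myeloid replicate 3 or 4 (0.0547 to 0.0956). Of the 4 partners of the SOCS box ligase (Cul5, Rnf7, Tceb1 and Tceb2), 0 were called by edgeR, DESeq2 or limma-voom, and 1 (Cul5, log2 fold change 0.36) had an unadjusted p under 0.05. Cul5 was called with upper-quartile scaling or without pro-myeloid replicate 2.

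Of 16 other genes known as STAT targets, 4 rose, 4 fell and 8 were not called (median log2 fold change -0.34), counts near the 16.8% higher and 20.6% lower among all tested genes. The cyclin gene Ccnd1 stood at 434, 684 and 527 CPM in the pro-lymphoid and 11.5, 5.77 and 5.79 CPM in the pro-myeloid libraries, the widest gap among the 16 (log2 fold change 6.16 ± 0.37, edgeR adjusted p = 8.43e-05). Ccnd2 rose by 1.47 ± 0.18, Myc by 1.31 ± 0.24 and Il2ra, the IL-2 receptor alpha chain gene, by 4.53 ± 0.82 from 14 counts over the pro-myeloid libraries. Id1, which encodes an inhibitor of E proteins, fell by 4.59 ± 0.44 (1.44 ± 0.665 against 34.9 ± 9.83 CPM) and the stress gene Gadd45g by 4.71 ± 0.55. Junb fell by 1.31 ± 0.22, while the call of Bcl3 (-1.21 ± 0.37, adjusted p = 0.0384) did not survive leaving out any 1 library except pro-lymphoid replicate 5 (0.0617 to 0.12). The survival gene Bcl2l1 had means of 26.9 ± 3.68 and 26.8 ± 1.03 CPM (interval of the log2 fold change -0.34 to 0.34). Of 7 genes of PIM kinase substrates, the cell cycle inhibitor gene Cdkn1b fell by 0.90 ± 0.12 (edgeR adjusted p = 0.0018), and Cdc25a rose by 0.78 ± 0.20 (adjusted p = 0.0207, lost without pro-lymphoid replicate 5 or 6 or pro-myeloid replicate 4 at 0.0511 to 0.0672). The other 5, Cdc25c and Eif4b among them, were not called. Cdc25c (0.81 ± 0.31, edgeR adjusted p = 0.0808) was called higher with DESeq2, with limma-voom or without pro-myeloid replicate 2. By direction 1 of the 7 rose and 1 fell, against 16.8% and 20.6% of all tested genes. Il2ra, Myc, Junb, Bcl3, Bcl2l1, Il6st, Stat2, Stat5a and Stat5b were named after their values were seen.

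**Figure D4:**
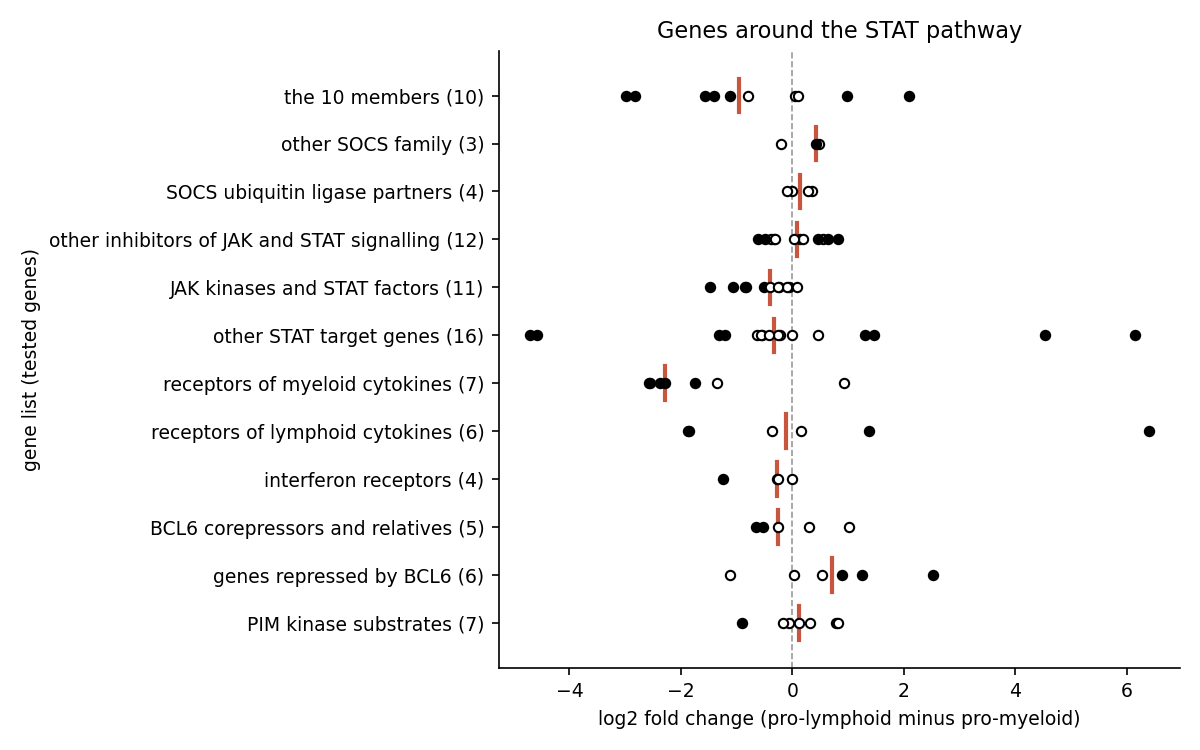
The x axis gives the log2 fold change (pro-lymphoid minus pro-myeloid) of the tested members of 12 lists (y axis, with the number of genes; the marker lists and the oncostatin M pathway list are not drawn), where a point is 1 gene, filled if its edgeR adjusted p passed 0.05 and open if it did not, and bars are medians. The bar of the myeloid cytokine receptors lies at -2.28, and the 10 members and the other STAT targets spread to both sides of 0.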

How the data were processed

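Polyadenylated RNA of 6 libraries, 3 of each culture, was selected with a NEBNext module and sequenced as single-end reads, per the labels' protocols. The counts deposited by the authors are raw reads per gene, made with featureCounts 1.5.1 on primary alignments over the exons of the UCSC mm10 annotation, ignoring strand, per the file headers. Trimmomatic, Bowtie, TopHat and DESeq2 were also used, per the submitters' processing notes, with settings not given in the sources used here. Near-identical genes can share such counts. The exons of the members and of Socs4, Socs5 and Socs7 overlapped those of no other counted gene.

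The deposited counts went into edgeR 4.0.16 under R 4.3.3, with filterByExpr, trimmed mean of M values (TMM) scaling and a quasi-likelihood F test of pro-lymphoid against pro-myeloid culture, two-sided, with Benjamini-Hochberg adjustment over all 12477 genes at 0.05. The SE of a log2 fold change comes from the F statistic. In the alternatives, DESeq2 1.42.0 or limma-voom (limma 3.58.1) replaced edgeR. TMM-scaled CPM were divided by exon length for RPKM. A floor of 3 counts in 1 library corresponds to 0.0650 to 0.0888 CPM and covers counting error only. Shares were compared with two-sided exact permutation tests. The procedure was tested on simulated counts.

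The members and gene lists were chosen with earlier results of these data known. The rule for named genes took all members, the other SOCS genes, in each list up to 4 tested genes of smallest adjusted p, and for each member the 3 nearest genes. A few genes it names are left out here. Promoter sequences are those of RefSeq (GRCm38.p6). Replicate numbers are those of the titles, and no number occurs in both cultures.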

Additional observations from a re-analysis of the deposited data

How the results depend on the processing

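Of 130 values of the 10 members under 13 alternatives (other scalings, filters and tools, and each library left out), 120 kept their side of the threshold, 9 lost a call and 1 gained one, and no called member changed direction. Socs3, Pim1, Cish and Pim3 were called under all 13. The 10 changes belong to Osm (5), Pim2 and Bcl6 (2 each) and Socs2 (1). Beside the values without single libraries given above, Osm lost its call without scaling factors (-1.34, adjusted p = 0.0517) and with limma-voom (-1.32, adjusted p = 0.0522). With 1 library left out, 1 to 2 members were higher, 3 to 6 lower, and 2893 to 5224 genes were called in all, against 4665 with all libraries. The lowest count came without pro-lymphoid replicate 6. These fits have fewer libraries. The differences in share kept their direction in all 7 alternatives each, at -55.2 to -43.3 percentage points for Pim1. No paired analysis was possible because no replicate number occurs in both cultures. Over the pro-lymphoid libraries Cish had 340 counts and Socs2 381, and their SD of log2 CPM between those libraries was 0.62 and 0.76.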
